A study of Mus musculus with 8 samples.

Results

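Kit and 7 further genes of early spermatogonial differentiation (Sohlh1, Sohlh2, Dmrtb1, Rhox13, Esx1, Stra8 and Prdm9) were followed in undifferentiated spermatogonia (A_undiff) during testis regeneration. They were chosen with earlier results of these data known and taken by name from the count table, which held all 8 of them among 14608 genes. Of the 8 genes, 7 were called higher and 1, Sohlh1, was called lower in regenerative A_undiff at a fold change over 1.5. Of all genes, 6.8% were called higher and 6.54% lower there. With a fold change over 2, 3 of the 8 were higher and 0 lower, and the calls of Sohlh2 and Rhox13 depended on single libraries. Kit, the receptor whose protein the sort selected against, was 5.35-fold higher in RNA.

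The study compared regenerative with homoeostatic A_undiff, to ask how the cells change when the germline recovers from damage. Regenerative A_undiff (BU, 4 libraries) came from testes of adult C57BL/6J mice taken 10 days after 1 dose of busulfan, an alkylating agent that kills germ cells, given at 10 mg/kg. Homoeostatic A_undiff (CTRL, 4 libraries) came from untreated mice of the same strain and age range (6 to 8 weeks). In both groups cells were sorted for E-cadherin and for CD49f, the α6-integrin, and against surface c-KIT, so the groups share that gate, and RNA was amplified before sequencing. The methods of the study name 4 mice per group, but no label ties a library to a mouse, so each p-value reflects how far these libraries differ and that spread may be technical. In bulk samples, fewer cells of a type and less RNA per cell cannot be told apart.

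Spermatogonia leave the undifferentiated pool when retinoic acid acts on cells made ready for it, and the step is marked by the appearance of the receptor tyrosine kinase KIT, which binds KIT ligand from Sertoli cells. The paired basic helix-loop-helix factors SOHLH1 and SOHLH2 bind E-boxes and are needed for this step in the mouse, and STRA8, induced by retinoic acid, acts later at the entry into meiosis. DMRTB1, also called DMRT6, guards the passage of differentiating spermatogonia towards meiosis, and PRDM9 is a histone methyltransferase that sets the places of meiotic recombination.

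Promoter windows are shown for the genes whose sequence bears on these factors, namely the receptor, the SOHLH pair that binds E-boxes, Dmrtb1 and the retinoic acid gene Stra8. Each runs from 250 bases before to 50 bases after a RefSeq start (GRCm38.p6, 300 bases, 5′ to 3′ on the strand of the gene). Capitals mark E-boxes (CANNTG, with N any base, which reads the same on both strands) in the first 4 and AGGTCA, a motif of retinoic acid receptors, in Stra8. They lie at chr5:75574737-75575036 (plus strand, Kit), chr2:25847199-25847498 (minus strand, Sohlh1), chr3:55181794-55182093 (plus strand, Sohlh2), chr4:107684181-107684480 (minus strand, Dmrtb1) and chr6:34920698-34920997 (plus strand, Stra8).
Kit: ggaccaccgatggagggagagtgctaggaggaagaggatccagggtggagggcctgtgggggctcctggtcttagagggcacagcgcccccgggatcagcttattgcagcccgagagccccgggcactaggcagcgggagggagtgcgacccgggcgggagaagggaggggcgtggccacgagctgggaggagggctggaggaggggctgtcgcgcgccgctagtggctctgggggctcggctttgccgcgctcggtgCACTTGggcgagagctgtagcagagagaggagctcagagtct
Sohlh1: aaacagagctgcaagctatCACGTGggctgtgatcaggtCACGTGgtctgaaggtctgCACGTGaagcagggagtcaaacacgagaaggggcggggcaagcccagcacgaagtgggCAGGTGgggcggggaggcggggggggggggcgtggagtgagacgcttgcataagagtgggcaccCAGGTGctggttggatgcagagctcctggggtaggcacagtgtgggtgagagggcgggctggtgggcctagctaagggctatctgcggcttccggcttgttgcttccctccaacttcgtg
Sohlh2: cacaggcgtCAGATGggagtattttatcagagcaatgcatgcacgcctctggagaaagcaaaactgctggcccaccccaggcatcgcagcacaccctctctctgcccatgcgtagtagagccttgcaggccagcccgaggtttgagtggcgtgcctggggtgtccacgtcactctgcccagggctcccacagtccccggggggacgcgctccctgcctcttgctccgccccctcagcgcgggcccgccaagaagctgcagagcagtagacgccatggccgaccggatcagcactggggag
Dmrtb1: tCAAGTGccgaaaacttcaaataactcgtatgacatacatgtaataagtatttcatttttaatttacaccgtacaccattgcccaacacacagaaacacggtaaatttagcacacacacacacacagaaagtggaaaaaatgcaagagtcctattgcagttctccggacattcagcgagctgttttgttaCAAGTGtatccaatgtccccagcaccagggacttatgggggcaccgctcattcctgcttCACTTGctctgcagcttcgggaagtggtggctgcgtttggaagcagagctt
Stra8: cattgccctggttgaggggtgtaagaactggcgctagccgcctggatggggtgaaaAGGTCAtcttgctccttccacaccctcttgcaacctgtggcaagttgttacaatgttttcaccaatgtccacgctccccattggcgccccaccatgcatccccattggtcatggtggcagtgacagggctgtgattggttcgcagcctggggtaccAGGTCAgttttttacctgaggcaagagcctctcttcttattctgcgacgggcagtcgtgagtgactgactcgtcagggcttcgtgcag

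The Sohlh1 window held 5 E-boxes, 3 of them of the form CACGTG, and the Kit and Sohlh2 windows held 1 E-box each. Among 32851 RefSeq promoters of this length, 72.3% held at least 1 CANNTG and 2.10% held 5 or more, while 7.15% held CACGTG and 0.088% held 3 or more of it. The Dmrtb1 window held 3 E-boxes, a number that 17.6% of promoters reached or passed. The Stra8 window held 0 E-boxes and 2 copies of AGGTCA, which was searched on both strands as AGGTCA or TGACCT and which 1.81% of promoters held at least 2 of. A single AGGTCA in the Sohlh1 window overlapped one of its E-boxes. All 8 genes matched a RefSeq promoter (11 windows), and 7 of them held a CANNTG in at least 1 window. A match describes these letters only, and the Stra8 window starts from a site 785 bases from the start of the gene in the count table.

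Libraries held 17181963 to 24243985 counts in BU and 18152779 to 23875108 in CTRL, and mitochondrial genes took at most 45.6% of them in BU and 43.5% in CTRL. The lowest correlation of log2 CPM (counts scaled to the library size) between libraries of one group was 0.974, for BU 2 and BU 3. The gate genes differed little, with Cdh1 (E-cadherin) at 24.6 CPM in BU and 25.0 CPM in CTRL (log2 fold change -0.03, SE 0.09) and Itga6 (CD49f) at 129.9 CPM in BU and 108.5 CPM in CTRL (log2 fold change 0.26, SE 0.05, limma-voom adjusted p = 0.0015), below the fold threshold. All 10 A_undiff markers listed were in the table, and 3 of them were lower in BU (Lin28a, Zbtb16 and Foxo1) with 0 higher (1 without BU 4). Of all genes, 6.54% were lower and 6.8% higher. Genes on the opposite strand shared 5.86% of the exonic bases of Lin28a and 7.78% of those of Foxo1. Gfra1, the GDNF receptor gene, was at a log2 fold change of 0.54 (SE 0.09, limma-voom adjusted p = 2.62e-04), below the fold threshold. A gene was called changed when its limma-voom p, adjusted over all 14608 genes, was under 0.05 and its fold change over 1.5.

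Of the 8 genes, 7 were called higher in BU, where 6.8% of all genes were, and 1 was called lower, where 6.54% of all genes were. All 8 were also called with edgeR and with DESeq2. The values of the 4 BU libraries lay wholly above those of the 4 CTRL libraries for 5 genes (14.5% of all genes) and wholly below for 1 gene (15.9% of all genes), where 30.3% of all genes were apart in either direction. The median log2 fold change was 0.84 over the 8 genes and -0.0059 over all genes. The 8 genes were chosen with earlier results of these data known, so these counts describe them and do not test them as a group. CPM here are scaled by TMM factors, and log2 fold changes are BU minus CTRL.

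**Figure D1:**
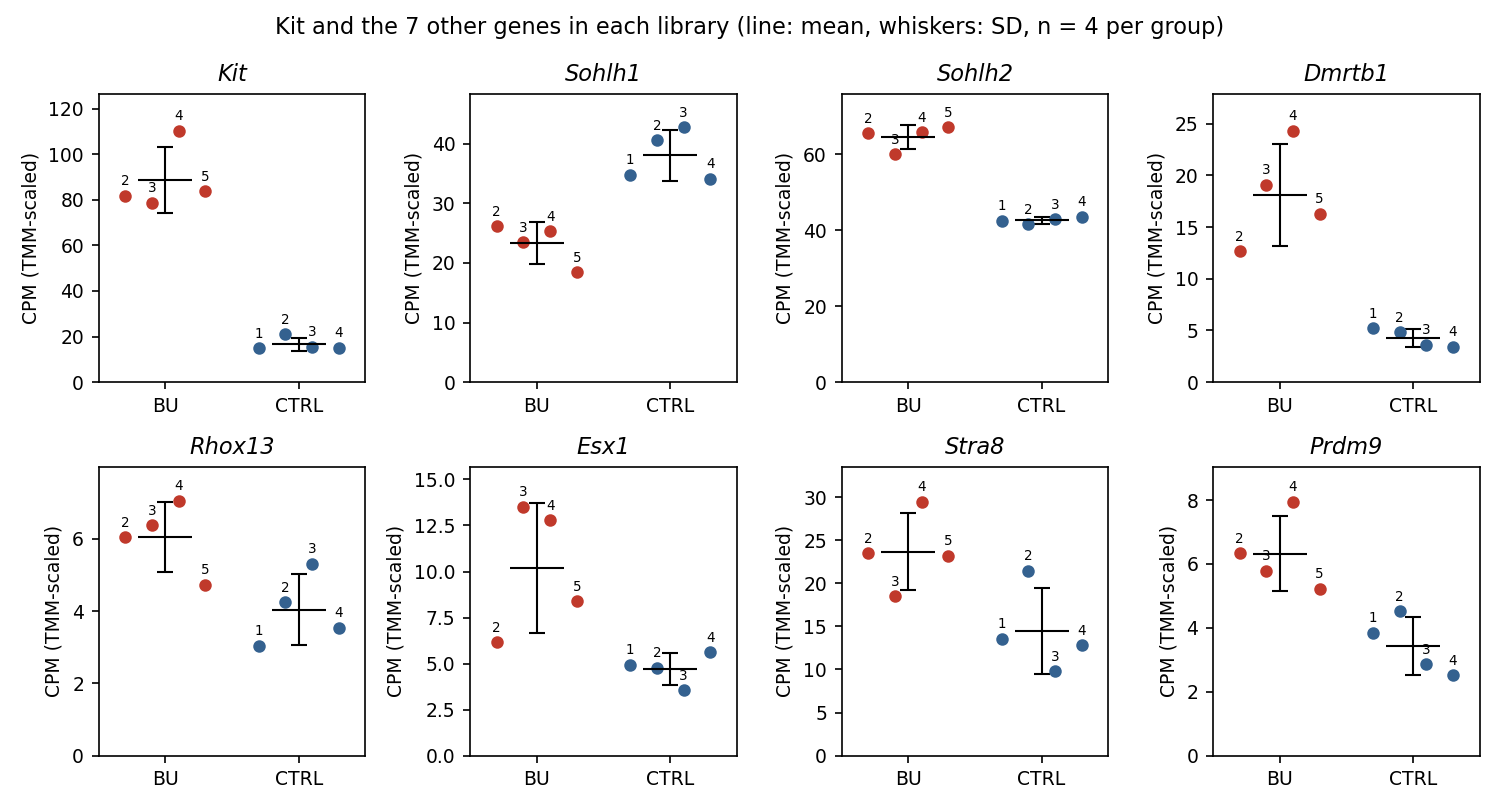
TMM-scaled CPM of the 8 genes in each BU (left) and CTRL (right) library, numbered by library, with a line at the mean and whiskers of 1 SD (n = 4 per group). Kit lies between 78.6 and 110.2 CPM in BU and between 14.9 and 20.9 CPM in CTRL, Sohlh1 is the gene that lies lower in BU, and Stra8 and Rhox13 overlap between groups.

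Kit (chr5:75574916-75656722, plus strand) encodes the receptor for KIT ligand and marks differentiating spermatogonia. It had 81.8, 78.6, 110.2 and 83.7 CPM in BU 2 to BU 5, against 14.9, 20.9, 15.6 and 15.1 CPM in CTRL 1 to CTRL 4. The groups did not overlap, and BU 4 and CTRL 2 were each the high library of their group. Kit rose to 88.6 ± 14.6 CPM in BU, against 16.7 ± 2.87 CPM in CTRL (SD, n = 4 each), a log2 fold change of 2.42 (SE 0.13, 95% interval 2.15 to 2.69, limma-voom adjusted p = 8.02e-10). Only 2 of the 14608 genes had a larger log2 fold change. The raw counts behind these values ran from 1378 to 2138 in BU and from 314 to 394 in CTRL. Left out one at a time, the libraries gave log2 fold changes of 2.31 to 2.52, and without BU 4 and CTRL 2 together the value was 2.41.

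Other cells of the testis also carry KIT, among them Leydig cells and mast cells. Of 9 Leydig markers 1 was in the table, Star, at 6.62 to 7.74 CPM in BU and 5.90 to 9.04 CPM in CTRL. Of 8 mast cell markers 1 was in the table, Hdc, at 2.55 to 5.70 CPM in BU and 2.61 to 3.90 CPM in CTRL. The defining steroid enzymes Cyp11a1 and Cyp17a1 and the mast cell proteases Cpa3 and Mcpt4 were among the markers outside the table and were not analysed here. Of 14 immune markers 5 were in the table, and all 5 were called higher (3 without BU 4, CTRL 1 or CTRL 3 in turn), where 6.8% of all genes were. Genes of the table reached at least 2.02 CPM in 4 libraries. Cd74, H2-Aa and Ptprc did so only with BU libraries (lowest CTRL values 0.856, 0.143 and 0.666 CPM), so this count is not independent of that limit. The 5 markers summed to 26.8 to 39.8 CPM in BU and 11.6 to 19.2 CPM in CTRL. Their part in the Kit difference was not tested.

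Sohlh1 (chr2:25842995-25847248, minus strand) was the gene that moved the other way. It had 26.2, 23.5, 25.3 and 18.4 CPM in BU 2 to BU 5, against 34.8, 40.6, 42.8 and 34.1 CPM in CTRL 1 to CTRL 4. Every BU library was below every CTRL library, with BU 5 the lowest. Sohlh1 fell to 23.4 ± 3.48 CPM in BU, against 38.1 ± 4.27 CPM in CTRL (SD, n = 4 each), a log2 fold change of -0.70 (SE 0.11, 95% interval -0.93 to -0.47, limma-voom adjusted p = 1.04e-04). Without BU 3 and BU 5 together the log2 fold change was -0.56 (limma-voom adjusted p = 0.00134), short of the fold threshold.

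Sohlh2 (chr3:55182028-55209957, plus strand), which encodes the partner factor, went up by a small and even amount. It had 65.5, 59.9, 65.7 and 67.1 CPM in BU 2 to BU 5, against 42.5, 41.5, 42.8 and 43.6 CPM in CTRL 1 to CTRL 4. The groups lay far apart relative to their spread, with BU libraries differing by 1.12-fold and CTRL libraries by 1.05-fold. The log2 fold change was 0.59 (SE 0.07, 95% interval 0.45 to 0.74, limma-voom adjusted p = 4.21e-06). This sits just over the fold threshold (1.51-fold against 1.5-fold). It slipped below it, at log2 fold changes of 0.57 to 0.58, without BU 2, BU 4, BU 5 or CTRL 2 in turn, while the adjusted p stayed at or under 4.69e-05.

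Since SOHLH1 and SOHLH2 work as a pair, their RNA was set side by side as CPM per kb of gene length, a pair picked after the values had been seen. Sohlh2 over Sohlh1 was 1.36, 1.39, 1.42 and 1.99 in BU 2 to BU 5, against 0.664, 0.558, 0.545 and 0.696 in CTRL 1 to CTRL 4. Per kb, Sohlh2 was thus the higher of the pair in every BU library and Sohlh1 in every CTRL library. This order depends on the division by gene length. In plain CPM, Sohlh1 was not above Sohlh2 in any library (34.1 to 42.8 against 41.5 to 43.6 CPM in CTRL).

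**Figure D2:**
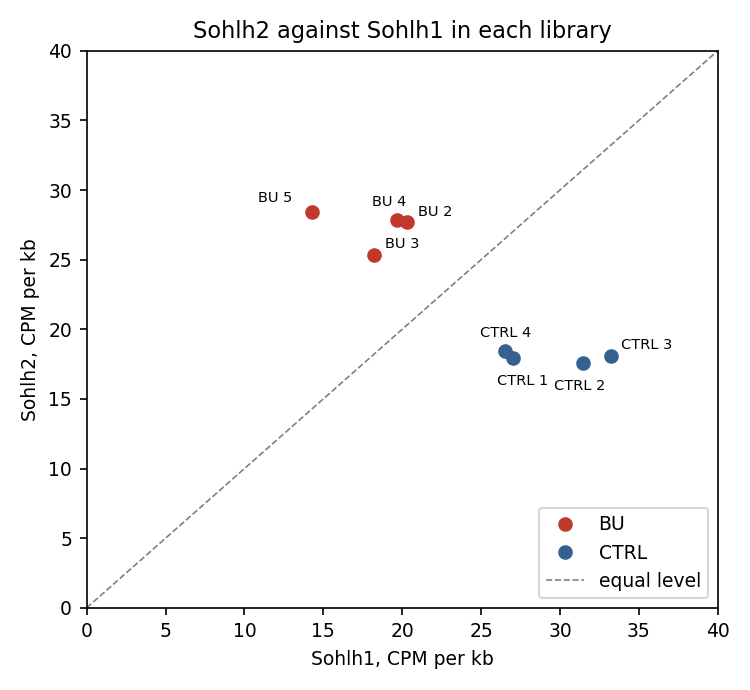
Level of Sohlh2 (y axis) against Sohlh1 (x axis) in CPM per kb, 1 point per library, with a dashed line at equal levels. The 4 BU points lie above the line, at Sohlh2 over Sohlh1 ratios of 1.36 to 1.99, and the 4 CTRL points below it, at 0.545 to 0.696.

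Dmrtb1 (chr4:107676290-107684230, minus strand) had 12.7, 19.1, 24.3 and 16.3 CPM in BU 2 to BU 5, against 5.23, 4.84, 3.64 and 3.41 CPM in CTRL 1 to CTRL 4. The groups did not overlap, although BU libraries differed among themselves by 1.92-fold, with BU 4 high and BU 2 low. Dmrtb1 rose to 18.1 ± 4.92 CPM in BU, against 4.28 ± 0.889 CPM in CTRL (SD, n = 4 each), a log2 fold change of 2.09 (SE 0.22, 95% interval 1.63 to 2.56, limma-voom adjusted p = 1.88e-06). It ranked 16 of 14608 by log2 fold change, and leaving out single libraries gave 1.95 to 2.24.

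Esx1 (chrX:137115397-137122083, minus strand), an X-linked homeobox gene known from placenta and testis, had 6.16, 13.5, 12.8 and 8.38 CPM in BU 2 to BU 5, against 4.94, 4.78, 3.55 and 5.63 CPM in CTRL 1 to CTRL 4. The groups did not overlap, but BU 2 was close to CTRL 4 and BU libraries spread over 2.19-fold, the widest BU spread of the 8 genes. Esx1 rose in BU with a log2 fold change of 1.11 (SE 0.24, 95% interval 0.60 to 1.62, limma-voom adjusted p = 0.00187).

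Rhox13 (chrX:38121219-38129967, plus strand), a homeobox gene of the X-linked reproductive homeobox cluster, was the least certain of the 8. It had 6.05, 6.38, 7.06 and 4.74 CPM in BU 2 to BU 5, against 3.04, 4.25, 5.31 and 3.54 CPM in CTRL 1 to CTRL 4. BU 5 was below CTRL 3, so the groups overlapped. The log2 fold change was 0.61 (SE 0.20, 95% interval 0.20 to 1.03, limma-voom adjusted p = 0.0245), on raw counts of 64 to 160. The call was lost without CTRL 1 (log2 fold change 0.50, limma-voom adjusted p = 0.0858), CTRL 4 (0.55), BU 3 (0.58) or BU 4 (0.54) in turn.

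Stra8 (chr6:34920163-34939344, plus strand), the retinoic acid target needed for meiotic entry, had 23.5, 18.5, 29.4 and 23.2 CPM in BU 2 to BU 5, against 13.5, 21.5, 9.81 and 12.8 CPM in CTRL 1 to CTRL 4. CTRL 2 exceeded BU 3, so the groups overlapped, and the CTRL libraries spread over 2.19-fold. Stra8 rose in BU with a log2 fold change of 0.76 (SE 0.18, 95% interval 0.39 to 1.14, limma-voom adjusted p = 0.00335). Leaving out single libraries gave 0.59 to 0.95, and each of these fits kept the call.

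Prdm9 (chr17:15543079-15564354, minus strand) had 6.33, 5.78, 7.94 and 5.22 CPM in BU 2 to BU 5, against 3.85, 4.52, 2.87 and 2.52 CPM in CTRL 1 to CTRL 4. The groups did not overlap, with BU 5 the BU library nearest to CTRL 2. Prdm9 rose in BU with a log2 fold change of 0.92 (SE 0.21, 95% interval 0.48 to 1.36, limma-voom adjusted p = 0.00255), on raw counts of 59 to 154.

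**Figure D3:**
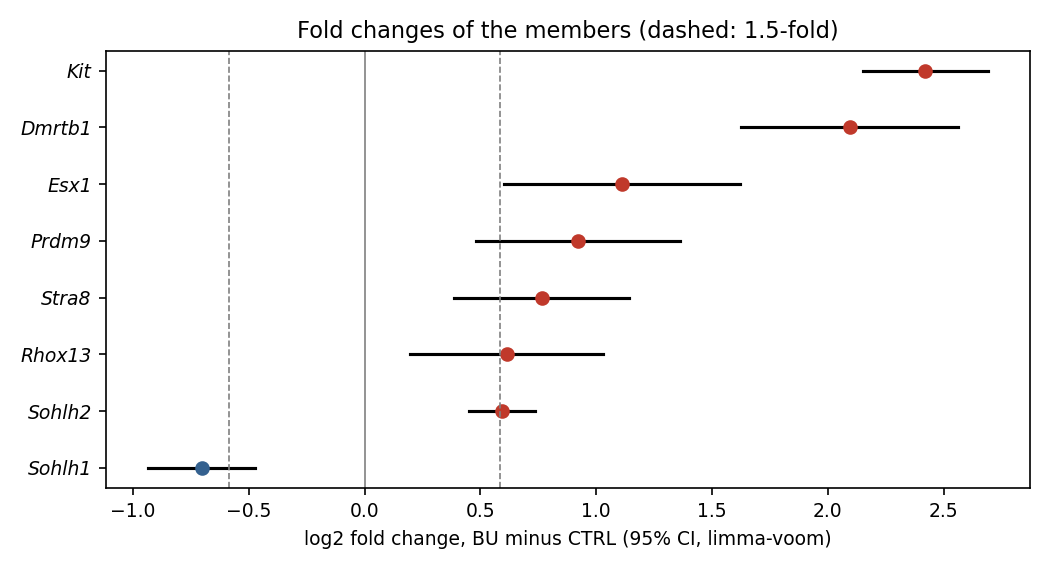
Log2 fold change (BU minus CTRL) of the 8 genes from limma-voom, with 95% intervals. Kit (2.42) and Dmrtb1 (2.09) lie farthest to the right, Sohlh1 (-0.70) is the gene below 0, and the other 5 lie between 0.59 and 1.11.

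BU 4 was the highest BU library for 5 of the 8 genes (Kit, Dmrtb1, Rhox13, Stra8 and Prdm9) and the lowest for 0 of them. BU 3 and BU 5 were the lowest for 3 genes each and BU 2 for 2. The SE of the 8 log2 fold changes was 1.95 to 3.36 times what counting error alone would give, so the spread between libraries and not the depth set most of the error. In the GENCODE M21 gene models, 0% of the exonic bases of each of the 8 genes were shared with another gene on either strand.

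Levels of different genes were compared per kb of gene length. In BU the order of mean levels was Sohlh2 (27.3 CPM per kb), Sohlh1 (18.1), Stra8 (13.1), Kit (9.94), Dmrtb1 (8.69), Rhox13 (6.92), Esx1 (5.15) and Prdm9 (1.47). In that order the library ranges were apart only between Sohlh2 and Sohlh1 and between Esx1 and Prdm9, and the other neighbours overlapped. In CTRL the order was Sohlh1 (29.6 CPM per kb), Sohlh2 (18.0), Stra8 (8.00), Rhox13 (4.61), Esx1 (2.38), Dmrtb1 (2.05), Kit (1.87) and Prdm9 (0.798). There the ranges overlapped between Stra8 and Rhox13, between Esx1 and Dmrtb1 and between Dmrtb1 and Kit, and the other neighbours were apart. Kit thus ranked 4 of 8 in BU and 7 of 8 in CTRL per kb. In CPM without division by length it ranked 1 in BU and 3 in CTRL.

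**Figure D4:**
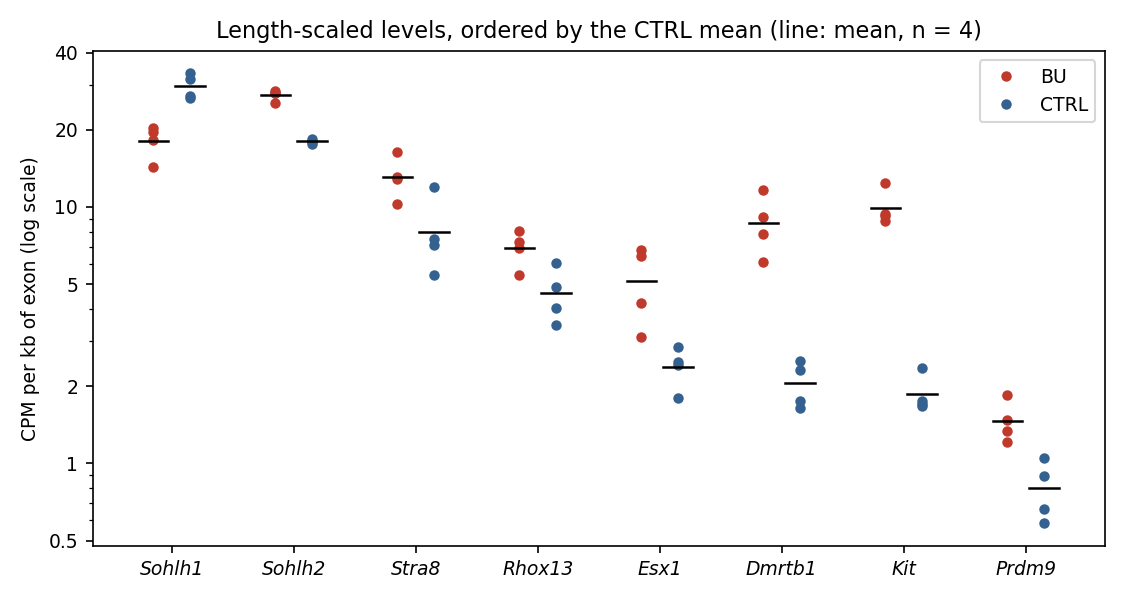
Level of the 8 genes in CPM per kb of gene length (log axis), with 1 point per library and a line at the mean, for BU (left) and CTRL (right) of each gene. Sohlh2 has the highest mean in BU (27.3 CPM per kb) and Sohlh1 in CTRL (29.6 CPM per kb), and Prdm9 has the lowest in both groups.

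The genes whose pattern across the 8 libraries was most like that of Kit were named by the root mean square difference of log2 CPM, each gene centred on its own mean, among genes outside the 8 with a mean log2 CPM of at least 3. Among the 5 nearest were Cdkn1a, the p21 cell cycle inhibitor (0.27), Sez6 (0.37), the testis histone gene Hist1h2ba (0.41) and C77370 (0.42). Cdkn1a had 45.9, 43.8, 40.2 and 59.0 CPM in BU 2 to BU 5, against 6.94, 11.8, 9.42 and 9.47 CPM in CTRL 1 to CTRL 4. Unlike Kit it was lowest in BU 4 among the BU libraries, and 7.68% of its exonic bases were shared with a gene on the opposite strand. With the minimum lowered to 1, only Cdkn1a of the 5 was still among the 5 most alike. Of the 8 genes followed here, Dmrtb1 came nearest to Kit (0.31) and Sohlh1 lay farthest from it (1.57).

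The wider pathways were read from 9 gene lists, chosen by known function but with earlier results of these data known. No set test was run on them. The lists held 173 genes, 128 of them in the table. Of these, 16 were called higher and 14 lower in BU, or 23.4%, against 13.3% of all genes called in either direction. The median log2 fold change of these 128 genes was 0.04. Genes of the table reached at least 2.02 CPM in 4 libraries, and some list genes did so only with libraries of the group where they were higher.

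Among 14 transcription factors that act beside or upstream of the 8 genes, 1 was higher and 3 lower in BU (13.3% of all genes called). Neurog3, a marker of progenitor spermatogonia, fell to 1.35 ± 0.652 CPM in BU, against 7.49 ± 1.54 CPM in CTRL (SD, n = 4 each), a log2 fold change of -2.53 (SE 0.32, limma-voom adjusted p = 1.20e-05). Genes on the opposite strand shared 16.3% of its exonic bases, and the strand setting of the counts is not known. Sox3, a further progenitor factor, fell (log2 fold change -1.43, SE 0.30), as did Zbtb16, which encodes PLZF and is known to repress Kit (log2 fold change -0.79, SE 0.06). The 1 gene higher was Id3, an inhibitor of helix-loop-helix factors (log2 fold change 0.67, SE 0.24, limma-voom adjusted p = 0.0441), which was named after its value had been seen. It was not called with edgeR (adjusted p = 0.0689), DESeq2 (adjusted p = 0.0545) or library totals as the scaling, and this count of 1 also went to 0 without BU 2, BU 3, BU 5, CTRL 2, CTRL 3 or CTRL 4 in turn. Sall4 was at -0.29 (SE 0.06), below the fold threshold.

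Of 25 genes of KIT signalling other than Kit, 1 was higher and 3 were lower in BU (13.3% of all genes called). Grb10, an adaptor of receptor tyrosine kinases, rose to 62.7 ± 14.7 CPM in BU, against 33.3 ± 1.67 CPM in CTRL (SD, n = 4 each, log2 fold change 0.88, SE 0.13, limma-voom adjusted p = 6.05e-05). The ubiquitin ligase Cblb (log2 fold change -0.71, SE 0.08), the kinase subunit Pik3cd (-0.69, SE 0.09) and Src (-0.69, SE 0.17, named after its value had been seen) fell. The count of genes higher went to 2 without BU 2, BU 3, BU 4, CTRL 1 or CTRL 3 in turn. Cbl, a ligase that acts on KIT, was at 0.35 (SE 0.05), below the fold threshold. The ligand Kitl, also named after its value had been seen, had 2.07 to 4.80 CPM in BU and 1.52 to 3.03 CPM in CTRL (log2 fold change 0.60, SE 0.30, limma-voom adjusted p = 0.141) and was not called.

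Genes of retinoic acid synthesis, breakdown, binding and reception were the list with the most genes called. Of 15 in the table, 8 were higher (6 to 8 with single libraries left out) and 1 was lower in BU. Of all genes, 6.8% were higher and 6.54% lower. Among the 8 higher genes, Cyp26a1, Cyp26b1, Cyp26c1 and Dhrs3 reached 2.02 CPM in 4 libraries, the minimum of the table, only with BU libraries. Their lowest CTRL values were 0.713 to 1.54 CPM, so their place in the count is not independent of the result. Among genes of synthesis, Aldh1a1 (log2 fold change 1.47, SE 0.27) and Aldh1a3 (1.09, SE 0.15) rose, as did the binding protein gene Crabp1 (0.62, SE 0.12). Aldh1a2 (-0.12, SE 0.10) and Rdh10 (-0.41, SE 0.15), also of synthesis and named after their values had been seen, were not called. The other 5 that rose, named after their values had been seen, were Cyp26a1, Cyp26b1 and Cyp26c1, whose products break retinoic acid down, the reductase gene Dhrs3 and the retinol carrier gene Rbp4, at log2 fold changes of 0.84 to 1.80. The receptor gene Rarg fell to 7.61 ± 1.56 CPM in BU, against 18.7 ± 1.52 CPM in CTRL (SD, n = 4 each), a log2 fold change of -1.28 (SE 0.14, limma-voom adjusted p = 2.83e-06). Somatic cells of the testis also use several of these genes. In its single-cell data the study took Aldh1a1, with Cd74 and Wt1 among others, to mark contaminating somatic cells. Here Cd74 was called higher (log2 fold change 1.87, SE 0.33) and Wt1 was not (0.09, SE 0.19). Of the 7 Sertoli markers in the table, of 10 listed, 2 (Cldn11 and Sox9) were called higher (1 without CTRL 3). Of 4 endothelial markers in the table, of 6 listed, 1 was higher (Kdr), and of 3 myoid or stromal markers, of 6 listed, 1 was higher (Pdgfra) and 1 lower (Col1a1). The Sertoli markers summed to 121.6 to 140.9 CPM in BU and 120.0 to 134.3 CPM in CTRL. Most of this was Ctsl, at 78.3 to 88.8 CPM in BU and 82.0 to 88.6 CPM in CTRL. The sums thus say little on Sox9 (3.92 to 5.35 CPM in BU, 2.18 to 3.42 CPM in CTRL) or Cldn11 (2.06 to 5.74 CPM in BU, 0.903 to 1.49 CPM in CTRL). Cldn11 and Cd74, too, are in the table only through their BU values. The part of any of these markers in the retinoic acid genes was not tested.

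The families of the other genes were small, with 2 of 5 DM domain genes and 3 of 6 X-linked homeobox genes called, where 13.3% of all genes were. Beside Dmrtb1, Dmrt3 was higher (log2 fold change 1.09, SE 0.15) and Dmrtc2 lower (-0.77, SE 0.18) of 5 other DM domain genes in the table. Dmrt1, known to hold mouse spermatogonia back from meiosis, was at -0.30 (SE 0.08), below the fold threshold. Beside Rhox13 and Esx1, the near-identical copies Rhox2a (1.07, SE 0.25) and Rhox2d (0.99, SE 0.27), whose reads cannot be told apart with certainty, were higher and Rhox10 was lower (-1.51, SE 0.21) of 6 X-linked homeobox genes in the table. Rhox2a (1.24 to 1.79 CPM in CTRL) and Rhox2d (1.16 to 2.09 CPM in CTRL) reached 2.02 CPM in 4 libraries, the minimum of the table, only with BU libraries. The count of 3 in 6 is thus not independent of that limit. The list named 32 homeobox genes, and the 26 outside the table were not analysed here.

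Genes of meiotic entry other than Stra8 and Prdm9 were called in 3 of 27 cases, where 13.3% of all genes were. That share was not exceeded here or by the PRDM9 and PRC1.6 counts below. M1ap (log2 fold change 0.66, SE 0.10) and the meiotic cohesin Rec8 (0.75, SE 0.22, named after its value had been seen) rose, and Spo11, which makes the meiotic double-strand breaks, fell (-1.03, SE 0.14). The cohesin genes Smc1b (0.41, SE 0.06) and Smc1a (0.45, SE 0.07) stayed under the fold threshold. Of 11 genes that work with PRDM9, 1 was called, the lysine methyltransferase gene Ehmt2 (-0.67, SE 0.09). Of 15 subunits of PRC1.6, a Polycomb complex known to hold meiotic genes silent in mouse germ cells, 1 was called, the core subunit gene Mga, at 490.5 ± 29.3 CPM in BU and 740.0 ± 37.9 CPM in CTRL (SD, n = 4 each, log2 fold change -0.59, SE 0.05, limma-voom adjusted p = 1.51e-07). Without BU 4 or CTRL 1 in turn, 0 of the 15 were called lower. Its partner gene Pcgf6 was at -0.32 (SE 0.07), below the fold threshold.

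Markers of later germ cells were not called. Of the 8 spermatocyte markers present, 0 were called by limma-voom, edgeR or DESeq2, with 1 at an unadjusted p under 0.05. This was Piwil1, a PIWI protein gene (log2 fold change -0.36, SE 0.12, limma-voom adjusted p = 0.0297), which passed the p threshold but not the fold threshold. Their sum was 131.4 to 184.3 CPM in BU and 132.7 to 165.0 CPM in CTRL. Of the 9 spermatid markers present, 0 were called by any of these tools, with 0 at an unadjusted p under 0.05, and their sum was 145.2 to 223.2 CPM in BU and 128.9 to 234.6 CPM in CTRL. Among 15 other genes of differentiating or progenitor spermatogonia, 2 were higher (1 without CTRL 4) and 4 lower in BU (13.3% of all genes called). Ccnd2, a cyclin of spermatogonial differentiation, rose to 287.1 ± 17.5 CPM in BU, against 160.8 ± 14.4 CPM in CTRL (SD, n = 4 each, log2 fold change 0.84, SE 0.06), and 7.87% of its exonic bases were shared with genes on the opposite strand. Upp1 (log2 fold change -2.90, SE 0.18) and Nanos3 (-1.69, SE 0.19), genes of the progenitor state and of germ cell maintenance, fell. The other 3 calls of this list, Crabp1, Neurog3 and Sox3, are those given above.

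**Figure D5:**
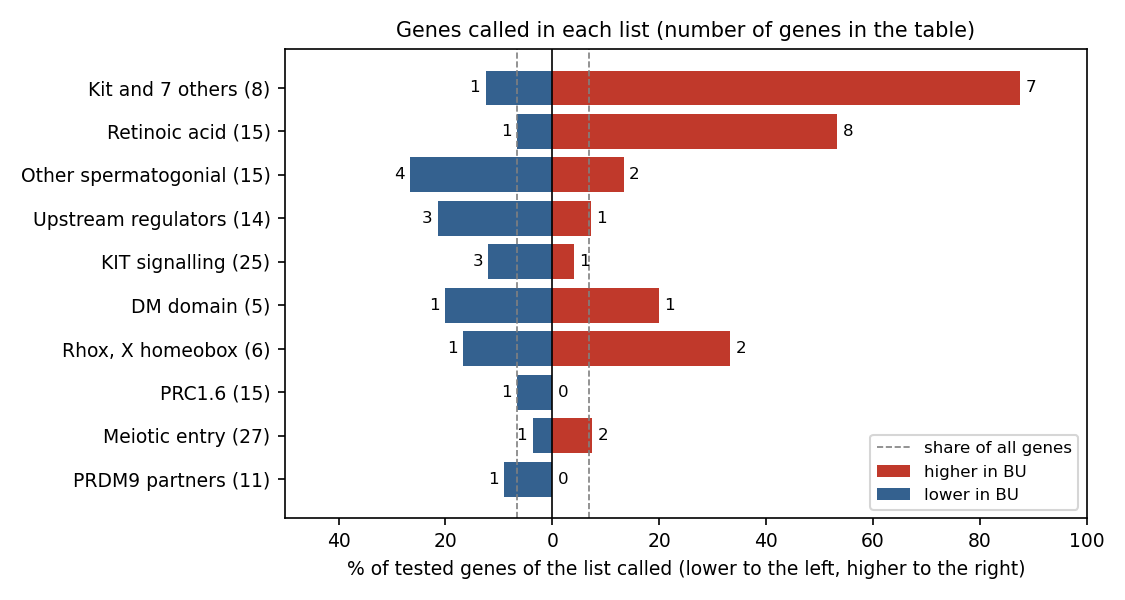
Percent of the genes of each list in the table that were called, with genes higher in BU to the right of 0 and genes lower in BU to the left, and dashed lines at the shares of all genes (6.8% higher, 6.54% lower). Of the 8 genes followed here 7 lie to the right and 1 to the left, and of 15 retinoic acid genes 8 lie to the right and 1 to the left. Some list genes are in the table only through the group where they were higher.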

How the data were processed

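RNA was from sorted A_undiff, amplified as cDNA by an isothermal method (SPIA) before 100 bp paired-end sequencing. The authors ran RNAsik on the reads. In the submitters' processing notes stand the build GRCm38 and the tools limma, edgeR and featureCounts. Which aligner, annotation release and strand setting were used is not given in the sources used here. The deposited table holds raw counts per gene for 8 libraries, which were used, and gene lengths in bp. The authors also deposited 8 per-sample columns of CPM and, from their own comparison, log2 fold changes, mean log2 CPM, p-values and adjusted p-values, none of which were used. Each of the 14608 genes reached at least 2.02 CPM in 4 libraries, and all 8 member genes did so in CTRL alone. Some list and marker genes did so only with BU libraries. BU columns are numbered 2 to 5 and the labels otherwise, so they were assigned to the group only.

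Counts were fitted with limma-voom (limma 3.58.1, edgeR 4.0.16, R 4.3.3) with TMM factors and group as the only term. filterByExpr removed 0 genes, and Benjamini-Hochberg adjustment ran over all genes. Over all genes the log2 fold change had a median SE of 0.126. Intervals and CPM per kb are for these libraries only, and amplification can change the relative yield of transcripts. DESeq2 1.42.0, edgeR's quasi-likelihood test, treat, other scalings, thresholds and left-out libraries were alternatives. The code was tested on simulated data. The members and lists were chosen with earlier results of these data known. Genes named were the 8 members, the 4 genes of each list with the smallest adjusted p, the 5 most like Kit and the sort markers, and 1 of the 5 is not reported here. Gene overlaps came from GENCODE M21 and promoters from RefSeq. Python 3.11.15 with pandas 2.3.3 and matplotlib 3.10.9 made tables and plots.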

Additional observations from a re-analysis of the deposited data

Results flagged for a closer look

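Kit in BU 4 had 110.2 CPM, and the other 3 BU libraries had 78.6 to 83.7 CPM. The gap between BU 4 and the nearest library took 0.839 of the range of the group, above Dixon's 95% critical value for 4 samples. Kit in CTRL 2 had 20.9 CPM, and the other 3 CTRL libraries had 14.9 to 15.6 CPM, a gap of 0.890 of the range. These were the 2 cases found in 16 groups (8 genes in BU and in CTRL), and chance gives about 1 in 20 groups. CTRL 2 was also the highest CTRL library for Stra8 (21.5 CPM) and Prdm9 (4.52 CPM), and BU 4 the highest BU library for both (29.4 and 7.94 CPM). Without BU 4 and CTRL 2 together, an alternative chosen after seeing the data, the log2 fold change was 2.41 for Kit, 0.84 for Stra8 and 0.94 for Prdm9, and all 3 kept their calls.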

How the results depend on the processing

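Over 176 combinations of a gene of the 8 and an alternative, 151 kept direction and side of the threshold, 25 kept direction but lost the call, and 0 reversed. Kit and Dmrtb1 kept the call in all of them. Some alternatives could not reverse a direction. Both count filters repeated the main fit, and treat and the stricter thresholds kept its log2 fold changes. With limma's treat test against 1.5-fold the calls among the 8 genes were 2 higher and 0 lower, among the 9 lists 1 higher and 5 lower, and among all genes 171 higher and 204 lower, so that Stra8 (0.76), Sohlh1 (-0.70), Sohlh2 (0.59), Rhox13 (0.61), Esx1 (1.11) and Prdm9 (0.92) lost theirs. With a fold change over 2 they were 3 higher and 0 lower, 6 higher and 7 lower, and 352 higher and 312 lower, and Stra8 (0.76), Sohlh1 (-0.70), Sohlh2 (0.59), Rhox13 (0.61) and Prdm9 (0.92) were not called. Without BU 3 and BU 5 together, 0 of the 8 were lower (Sohlh1 -0.56). Sohlh2 lost its call with library totals only (0.57) and, like Rhox13 (0.57), without BU 4 and CTRL 2 together (Sohlh2 0.57), a setting chosen after seeing the data that left 5 higher. Rhox13 also lost it with sample quality weights (0.55) and at an adjusted p under 0.01 (0.61). Leaving out single libraries gave 0.57 to 0.63 for Sohlh2, 0.50 to 0.77 for Rhox13 and 5 to 7 of the 8 genes higher. With the minimum level lowered, 1 of the 5 genes most like Kit was shared. Scalings moved the median log2 fold change of all genes to between -0.027 and 0.0099, and both count filters removed 0 genes. For a count of genes of a single list, 725 of 792 values stayed within 1.5 times. No paired analysis was possible because BU columns carry the numbers 2 to 5 and the sample labels others, so no number links a BU to a CTRL library. With 4 libraries per group, changes close to 1.5-fold, such as those of Sohlh2 and Rhox13, fell on either side of the threshold depending on the setting.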
